A study of Mus musculus with 51 samples.

Results

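The pyramidal layer of CA3 and the granular layer of the dentate gyrus (DG) were compared in the 34 arrays that held either layer, 17 of CA3 and 17 of DG, out of 51 arrays in the series. The members were chosen by the subfield named in each array's title and were joined by mouse, so that each of 17 mice, labelled female and 4.5 months old, stands for 1 CA3 array and 1 DG array. There were 6 DN mice, littermates that carried neither transgene, 5 tTA mice, which carried only the tetracycline transactivator under the CaMKIIα promoter, and 6 rTg4510 mice, which carried that transactivator together with a tetracycline-responsive transgene for human tau with the P301L mutation. All genotypes came from the same cross of a tau line and a transactivator line on different inbred backgrounds, and the CaMKIIα promoter directs expression to forebrain excitatory neurons, among them those of both layers. The layers were cut by laser from frozen sections and their RNA was amplified before hybridization to Affymetrix HT-MG-430A arrays. A value is a log2 RMA signal, and a difference is CA3 minus DG within a mouse, so that 1 unit is a factor of 2 and a negative sign means a higher signal in DG.

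The DG and CA3 are consecutive stations of the hippocampal circuit. Granule cells, small and densely packed, receive the perforant path and send mossy fibres to the proximal apical dendrites of CA3 pyramidal cells, where large boutons end on branched spines called thorny excrescences. CA3 pyramidal cells excite each other through recurrent collaterals and reach CA1 through the Schaffer collaterals. The subgranular zone beneath the granular layer is known for the birth of neurons in adult rodents, and the hilus next to it holds mossy cells and many inhibitory neurons.

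Some arrays went against their labels. In CA3, Prnp, the prion protein gene, ran from 9.59 to 10.07 in rTg4510 mice and from 7.17 to 8.35 in tTA mice. It was 7.89 to 8.55 in the CA3 arrays of most DN mice but 9.65 in that of DN mouse 4, and in DG it was 9.98 and 9.93 in DN mice 4 and 5 against 7.46 to 8.02 in the other DN mice. In DG of rTg4510 mouse 3 it was 7.34, against 9.73 to 10.26 in the other rTg4510 mice. These 4 arrays thus lay outside the range of their labelled genotype. Xist, the RNA of the inactive X chromosome, was 4.06 in CA3 and 9.91 in DG of DN mouse 5, and 8.96 in CA3 and 2.501 in DG of rTg4510 mouse 3, although all mice are labelled female. The CA3 and DG arrays of these 2 mice therefore do not look like samples of 1 female animal, and their pairing rests on the titles alone. In the arrays labelled CA1, Xist was 2.49 in DN mouse 5 and 7.85 in rTg4510 mouse 3, and Prnp was 8.125 and 10.11. Both genes were nearer there to the CA3 than to the DG array of the same mouse. In DN mouse 4 Prnp was high in the CA1 array too, at 10.44 against 6.57 to 8.76 in the other DN mice. Xist was 9.11, 9.26 and 10.11 in CA1, CA3 and DG of that mouse. All 3 mice were kept as labelled. Without them 2272 probe sets differed between the layers in place of 2805, 1154 higher in CA3 and 1118 in DG, and the differences of the markers described next were −6.05 for Dsp, −5.28 for C1ql3, −4.78 for Calb1, −4.63 for Prox1, 3.18 for Prkcd and 2.47 for Bok.

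Dsp, C1ql3, Calb1 and Prox1 had high signals in the DG and low ones in CA3, while Prkcd and Bok ran the other way, in 17 of 17 mice each. The brightest probe set of each gene was used to rank genes called with 1 direction in 17 of 17 mice. By this rank Dsp and C1ql3 had the largest differences toward DG and Neurod6 the largest toward CA3. In the sequences below, a match to GGGCGG or its complement, the GC box bound by Sp1, is in capitals. The promoters of Dsp, C1ql3, Neurod6 and the CA3 marker Bok are shown as examples from both sides. Each is the 150 bases before the annotated start, 5′ to 3′ along the gene's strand, in RefSeq's annotation of GRCm38.p6: Dsp at chr13:38151144-38151293 on the plus strand, C1ql3 at chr2:13010865-13011014 on the minus strand, Bok at chr1:93685425-93685574 on the plus strand and Neurod6 at chr6:55681264-55681413 on the minus strand.
Dsp: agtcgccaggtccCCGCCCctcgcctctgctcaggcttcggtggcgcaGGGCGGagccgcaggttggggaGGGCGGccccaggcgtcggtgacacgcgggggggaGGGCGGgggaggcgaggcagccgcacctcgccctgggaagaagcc
C1ql3: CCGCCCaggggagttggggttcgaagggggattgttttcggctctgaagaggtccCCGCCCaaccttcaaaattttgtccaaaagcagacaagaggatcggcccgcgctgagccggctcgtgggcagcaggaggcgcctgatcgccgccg
Bok: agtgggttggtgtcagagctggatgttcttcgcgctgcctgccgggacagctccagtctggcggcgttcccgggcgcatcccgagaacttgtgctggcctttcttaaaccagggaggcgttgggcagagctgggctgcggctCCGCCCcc
Neurod6: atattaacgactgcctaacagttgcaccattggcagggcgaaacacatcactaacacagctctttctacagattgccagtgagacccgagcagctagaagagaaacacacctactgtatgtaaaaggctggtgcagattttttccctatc
Dsp held 4 GC boxes and a GC content of 77.3%, C1ql3 held 2 and 63.3%, Bok held 1 and 66.0%, and Neurod6 held none and 45.3%. Over 32851 promoters of this length the median GC content was 54.0% and 28.6% held a GC box on either strand. No match was found in these 4 windows to TATAAA, the E-boxes CAGATG and CAGCTG, the cAMP response element TGACGTCA or the AP-1 element TGACTCA, which 7.57%, 8.81%, 8.39%, 1.36% and 2.84% of all promoters held on either strand.

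The labels of layer were first set against the marker genes. Dsp encodes desmoplakin, which ties desmosomal junctions to intermediate filaments. Its signals ran from 1.60 to 6.47 with a median of 2.28 in CA3 and from 8.37 to 9.58 with a median of 9.04 in DG. Every DG array lay above every CA3 array, and the difference was −5.94 (SE 0.39, limma adjusted p = 6.5e-09). C1ql3, a secreted C1q-like protein that organizes synapses, ran from 2.10 to 4.87 (median 2.51) in CA3 and from 6.58 to 9.49 (median 8.22) in DG, again without overlap, and differed by −5.27 (SE 0.28, limma adjusted p = 4.5e-10). Calb1, the calcium buffer calbindin, ran from 1.63 to 4.13 (median 2.30) in CA3 and from 6.42 to 8.12 (median 7.30) in DG. The gap between its highest CA3 array and its lowest DG array was the widest of the markers, 2.29, and its difference was −4.81 (SE 0.22, limma adjusted p = 2.1e-10). Prox1, the homeodomain factor that sets and keeps granule cell identity, ran from 1.04 to 3.33 (median 1.47) in CA3 and from 4.36 to 7.29 (median 6.24) in DG, a difference of −4.60 (SE 0.22, limma adjusted p = 2.1e-10). All 4 genes therefore separated every array by its label. Their CA3 medians lay below the median signal of CA3 arrays (2.99), where signal may be background, so the differences may understate the change. In dissected tissue, fewer cells of a type and less RNA per cell cannot be told apart, and this holds for each difference given here.

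The markers of CA3 separated the layers less widely. Prkcd, a diacylglycerol-dependent protein kinase C, ran from 4.67 to 7.40 (median 6.78) in CA3 and from 1.35 to 5.60 (median 3.17) in DG, and Bok, a relative of Bcl-2 that acts in cell death, from 6.57 to 8.09 (median 7.69) and from 3.58 to 6.93 (median 4.79). The groups overlapped in both genes. The DG arrays at the top were those of rTg4510 mouse 1 (5.60) and DN mouse 2 (5.51) for Prkcd and that of DN mouse 2 (6.93) for Bok. Within mice CA3 was nevertheless higher in 17 of 17, by 3.23 for Prkcd (SE 0.30, limma adjusted p = 4.9e-07) and by 2.66 for Bok (SE 0.20, limma adjusted p = 2.3e-08). In CA3, granule markers stood out in a few arrays: Dsp was 6.47 in DN mouse 4, 6.17 in tTA mouse 5 and 5.76 in tTA mouse 3, against 1.60 to 4.06 in the other CA3 arrays, and C1ql3 was 4.54 and 4.87 in DN mouse 4 and tTA mouse 5. Granule tissue taken along with CA3 was not measured apart, and its part in the results was not tested.

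**Figure D1:**
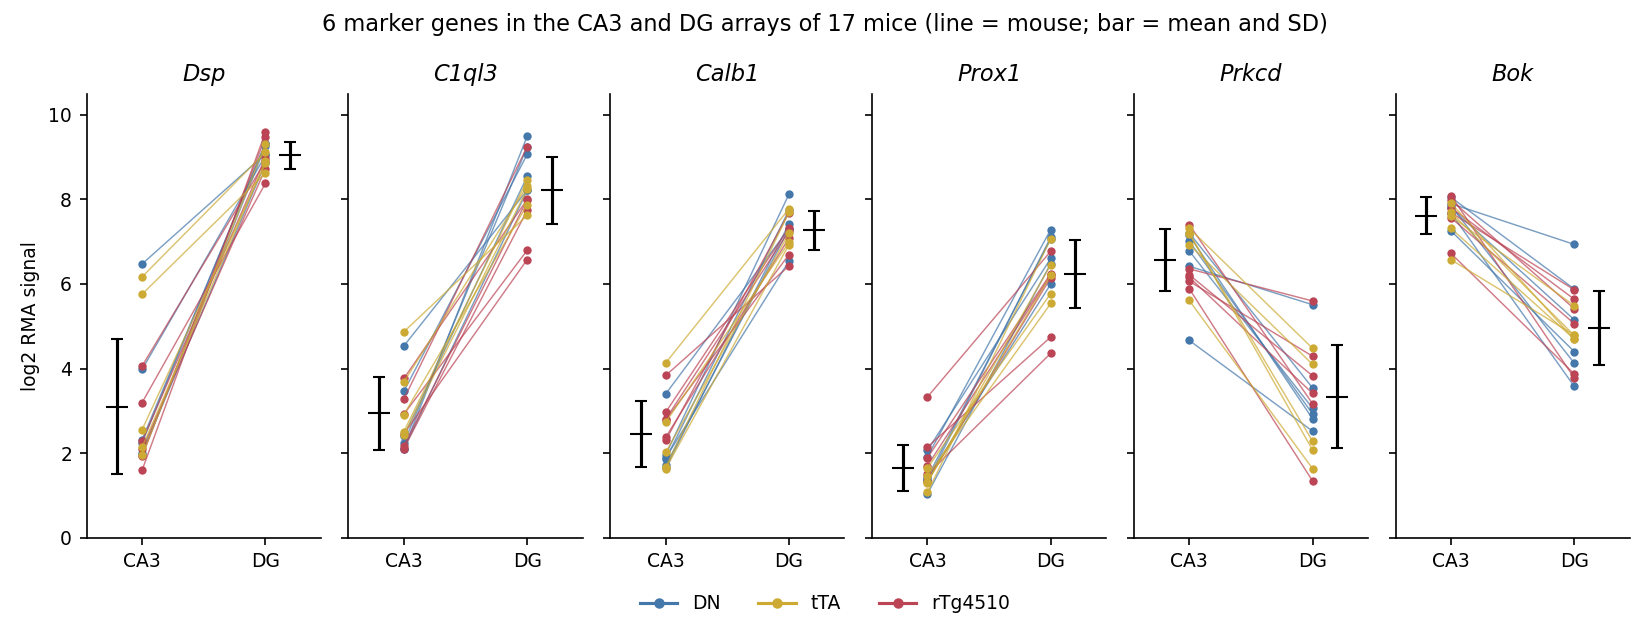
Log2 RMA signals of 6 marker genes in the CA3 and DG arrays of 17 mice, with 1 line per mouse coloured by genotype and bars for the mean and SD of each layer. Dsp, C1ql3, Calb1 and Prox1 were higher in every DG array than in any CA3 array, whereas the layers overlapped for Prkcd and Bok although every line falls from CA3 to DG.

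Across 22626 probe sets, limma with the mouse as a block called 2805 (12.4%) at an adjusted p under 0.05. Of these, 1429 (6.32%) were higher in CA3 and 1376 (6.08%) higher in DG. The even split hid unequal sizes. A difference of 1 or more was reached by 861 (3.81%), and differences of 2 or more were found for 45 probe sets higher in CA3 and 130 higher in DG, and of 3 or more for 3 and 32, and the median size of a call was 0.67 in CA3 and 0.85 in DG. No overlap between the layers was seen for 42 probe sets (0.186%) with every CA3 array above every DG array and for 68 (0.301%) with the reverse. The split depended on the level to which arrays were set. The median signal of an array was lower in CA3 (2.91 to 3.07, median 2.99) than in DG (2.97 to 3.12, median 3.06), by 0.072 on average, and after each array was centred on its median 2450 probe sets were called higher in CA3 and 1144 higher in DG, a CA3 share of 68.2% in place of 50.9%.

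**Figure D2:**
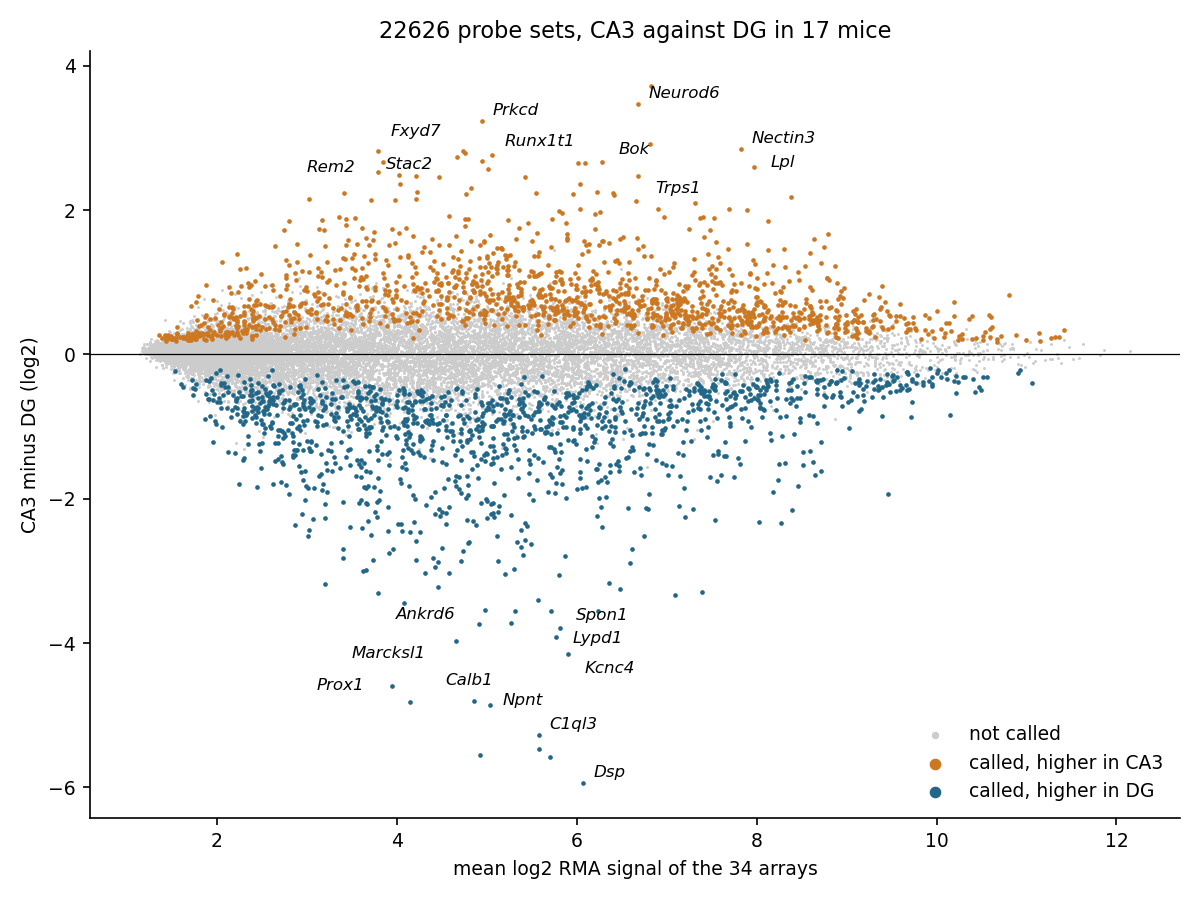
CA3 minus DG difference (log2, vertical) of 22626 probe sets against their mean log2 RMA signal over the 34 arrays (horizontal); orange points were called higher in CA3, blue points higher in DG and grey points were not called. The largest differences lie below the line, where 32 calls exceed a size of 3 against 3 above it.

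Beyond the markers, the genes most in favour of the DG were Npnt, Kcnc4, Marcksl1, Lypd1, Spon1, Ankrd6, Bcl6, Spsb1, Tiam1, Cbfb and Rfx3. Together with the 4 markers they are the 15 lowest differences, by brightest probe set, among genes called with 1 direction in 17 of 17 mice. Over all probe sets, such calls numbered 217 (0.959%) higher in CA3 and 249 (1.1%) higher in DG. Kcnc4, a fast-inactivating potassium channel of the Shaw family found in mossy fibre terminals, ran from 2.52 to 6.18 (median 3.82) in CA3 and from 6.97 to 8.74 (median 7.92) in DG. The layers did not overlap, with a difference of −4.16 (SE 0.24, limma adjusted p = 8.6e-10) by the brighter of its probe sets, while its other probe set differed by −0.19 and was not called. Npnt, the integrin ligand nephronectin, was 1.48 to 6.02 (median 2.02) in CA3 and 5.70 to 8.55 (median 7.62) in DG. It was the gene of these 15 whose layers overlapped, and it differed by −4.86 (SE 0.44, limma adjusted p = 2.8e-07).

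Several of the others act on the cytoskeleton, the extracellular space or transcription. Marcksl1, an actin-binding substrate of protein kinase C, differed by −3.98 (SE 0.21), Tiam1, an exchange factor for Rac, by −3.56 (SE 0.32), and the matrix protein F-spondin, Spon1, by −3.79 (SE 0.27). Lypd1, a modulator of nicotinic receptors, differed by −3.92 (SE 0.26). These 4 genes were non-overlapping between the layers. Of transcriptional regulators, the repressor Bcl6 ran from 2.30 to 4.97 in CA3 and from 5.20 to 7.998 in DG and differed by −3.72 (SE 0.24), Cbfb, the partner of Runx proteins, by −3.55 (SE 0.27), and Rfx3, known for its role in making cilia, by −3.55 (SE 0.28). The largest difference of a probe set that the platform table leaves without a symbol was −5.57.

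By the same rule, the genes most in favour of CA3 were Neurod6, Prkcd, Nectin3, Fxyd7, Runx1t1, Stac2, Bok, Lpl, Rem2, Trps1, Dusp6, Slit2, Pde1a, Armh4 and Dkk3. Neurod6, a basic helix-loop-helix factor of pyramidal neurons, ran from 8.07 to 8.82 (median 8.45) in CA3 and from 2.70 to 7.24 (median 5.00) in DG. CA3 arrays were tightly grouped and DG arrays widely spread, with no overlap, and the difference was 3.46 (SE 0.28, limma adjusted p = 9.7e-08), a factor of 11.03. Nectin3 is an adhesion protein of the junctions between mossy fibre boutons and CA3 dendrites. It ran from 8.83 to 9.63 (median 9.24) in CA3 and from 3.46 to 7.74 (median 6.67) in DG. Its difference was 2.85 (SE 0.27, limma adjusted p = 5.2e-07) by the brightest probe set and 0.39 to 3.72 by the others. Lpl, lipoprotein lipase, showed the same form, at 8.97 to 9.68 (median 9.29) in CA3 and 5.22 to 8.10 (median 6.76) in DG, and differed by 2.59 (SE 0.16, limma adjusted p = 2.1e-09). In these 3 genes the spread lay almost entirely in DG: the SD was 0.23, 0.21 and 0.18 in CA3 and 1.22, 1.11 and 0.74 in DG.

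The remaining CA3 genes had smaller differences. Stac2, an adaptor of voltage-gated calcium channels, differed by 2.74 (SE 0.25), Rem2, a small GTPase that inhibits such channels, by 2.53 (SE 0.25), and Pde1a, a calmodulin-dependent phosphodiesterase, by 2.24 (SE 0.29). The layers of all 3 overlapped even though CA3 was higher in 17 of 17 mice. Slit2, the repellent ligand of Robo receptors, ran from 5.12 to 6.65 (median 6.11) in CA3 and from 2.40 to 5.10 (median 3.67) in DG and differed by 2.31 (SE 0.23, limma adjusted p = 1.3e-06), the lowest CA3 array lying just above the highest DG array. Fxyd7, a regulator of the sodium pump, differed by 2.79 (SE 0.23), Dusp6, a phosphatase of ERK, by 2.45 (SE 0.21), and Dkk3, a secreted protein of the dickkopf family, by 2.18 (SE 0.16), each without overlap.

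The arrays labelled CA1 from the same mice were not used as a reference for these genes, because their markers varied widely. Among the 17 of them Prkcd ran from 1.09 to 6.53 and Calb1 from 1.69 to 7.11, and Prkcd was above the lowest CA3 array in 5.

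Cell type lists were read next, with 1 probe set per gene, the brightest, for 11807 genes, of which 796 (6.74%) were called higher in CA3 and 758 (6.42%) higher in DG, with a median difference of 0.05. Of 14 measured granule cell genes, 11 were higher in DG, 1 was higher in CA3 and the median difference was −3.10. The exception was Sema5b, a guidance molecule, at 3.45 to 5.79 in CA3 and 1.90 to 4.16 in DG (difference 1.61, SE 0.20), and Tdo2, tryptophan dioxygenase, differed by −1.11 without a call (limma adjusted p = 0.078). Of 11 CA3 genes, 9 were higher in CA3 and none in DG, with a median of 1.87. Among these were the signalling inhibitor Socs2 (2.14), the iodotyrosine deiodinase Iyd (1.87) and the postsynaptic scaffold Homer3 (1.17). The mean of the granule genes ran from 2.62 to 3.62 in CA3 arrays and from 5.25 to 6.33 in DG arrays, and that of the CA3 genes from 5.23 to 6.40 and from 3.69 to 4.57, so both means kept the layers apart. Most of these genes were listed because they are known for this very contrast.

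Among genes named for other hippocampal fields, calls went in both directions, but toward DG only for CA1 and CA2 genes. Of 5 genes shared by CA1 and CA3 pyramids, Neurod6 was higher in CA3 and Mas1, a G protein-coupled receptor, was higher in DG at 4.80 to 6.55 against 2.42 to 3.80 (difference −2.87, SE 0.14, limma adjusted p = 2.2e-10). The Rac exchange factor Tiam2 was also higher in DG (−1.10) and the pentraxin Nptx1 in CA3 (0.47). Of 7 CA1 genes, Bcl6 and Crym, a thyroid hormone binding protein, were higher in DG (−3.72 and −3.45). Wfs1, Dcn and Htr1a stood at −0.11, 0.04 and 0.00 without a call. Pou3f1, also not called, differed by −2.06, −0.345 and −0.90 in DN, tTA and rTg4510 mice. The mean of the CA1 genes ran from 2.79 to 3.53 in CA3 and from 3.78 to 5.00 in DG. It was higher in DG in 17 of 17 mice (mean difference −1.20). Of 7 CA2 genes, Cacng5, Necab2, Pcp4 and Rgs14 were higher in DG, by 1.47, 1.23, 0.84 and 0.52 on the log2 scale, and none was higher in CA3. Of 9 mossy cell genes, Calb2 and Nmb were higher in DG (−1.68 and −1.14) and Ap2s1 was higher in CA3 (0.92).

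Inhibitory interneuron genes leaned to the DG. Of 17 measured, 6 were higher there and none in CA3: Npy (−1.58), the GABA-synthesizing enzymes Gad1 (−1.53) and Gad2 (−1.37), Reln (−1.24), Tac1 (−1.05) and the vesicular GABA transporter Slc32a1 (−0.45). Gad1 ran from 5.30 to 7.36 (median 6.22) in CA3 and from 6.38 to 8.24 (median 7.83) in DG and was higher in DG in 17 of 17 mice. Genes that mark the main interneuron classes were not called: Sst differed by 0.21, Pvalb by 0.61, Vip by −0.38 and Lhx6 by 0.57. With the RNA quality measure given below as a covariate, Npy, Gad1 and Gad2 were called, at −1.60, −1.45 and −1.19, and Reln, Tac1 and Slc32a1 were not, at −0.94, −0.75 and −0.41. Granule cells themselves are known to make Gad1 in rodents.

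Of 14 immature neuron and neurogenic niche genes, 7 were higher in DG and 1 in CA3. Sox4 and Sox11, factors of newborn neurons, ran from 2.34 to 4.26 and from 4.30 to 6.70 in CA3 and from 3.94 to 6.72 and from 6.08 to 7.93 in DG. They were higher in DG in 17 of 17 mice, by −1.98 (SE 0.18, limma adjusted p = 2.7e-07) and −1.59 (SE 0.17, limma adjusted p = 2.6e-06). Hopx and Sox2, expressed by neural stem cells and also by astrocytes, differed by −1.44 and −0.75, the proliferation marker Mki67 by −1.02 and the neurogenic factor Neurod1 by −0.79. Eomes and Igfbpl1, which mark intermediate progenitors and newborn neurons, stood at 0.00 and −0.18 without a call. Ccnd2 was higher in CA3 by its brightest probe set (0.54), and its other probe sets were also called higher in CA3, by 1.17 to 2.655. Over all 30 probe sets of the listed genes, 6 were higher in CA3 and 12 in DG.

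Glial and vascular genes were called less often than interneuron and immature neuron genes. Of 15 astrocyte genes, 4 were higher in DG: the bicarbonate transporter Slc4a4 (−1.58, with another probe set at −5.46), Gfap, the astrocyte intermediate filament (−1.42), Clu (−0.59) and the connexin Gja1 (−0.58). The astrocyte mean ran from 4.96 to 6.63 in CA3 and from 5.06 to 6.999 in DG, and it was higher in DG in 15 of 17 mice, by 0.446 on average (SD of the differences 0.406). Of 13 oligodendrocyte genes, Mal was higher in CA3 (0.97) and 12 were not called, among them Mbp at 0.87 (limma adjusted p = 0.0646). Of 16 microglia genes, Itgam was higher in CA3 and Cx3cr1 (−0.63) and Fcgr3 in DG, Col4a1 (0.89) was the call among 16 vascular genes, and none of 6 choroid plexus genes was called. Without the 3 mice with conflicting labels Fcgr3 alone of the oligodendrocyte, microglia and vascular genes was called. The means of the oligodendrocyte, microglia and vascular genes overlapped between layers over nearly their whole ranges, 3.84 to 5.63, 2.48 to 3.66 and 2.92 to 4.39 in CA3 and 3.52 to 5.66, 2.63 to 3.75 and 2.998 to 4.35 in DG. Within mice the microglia mean was higher in DG in 12 of 17 mice (mean difference −0.26), the oligodendrocyte mean was higher in CA3 in 12 (0.23) and the vascular mean in 9 (0.064). By genotype, the median difference of the microglia genes was −0.44, −0.27 and 0.17 in DN, tTA and rTg4510 mice, a change of sign that was not tested. The part of these cell types in the differences of other genes was not tested.

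**Figure D3:**
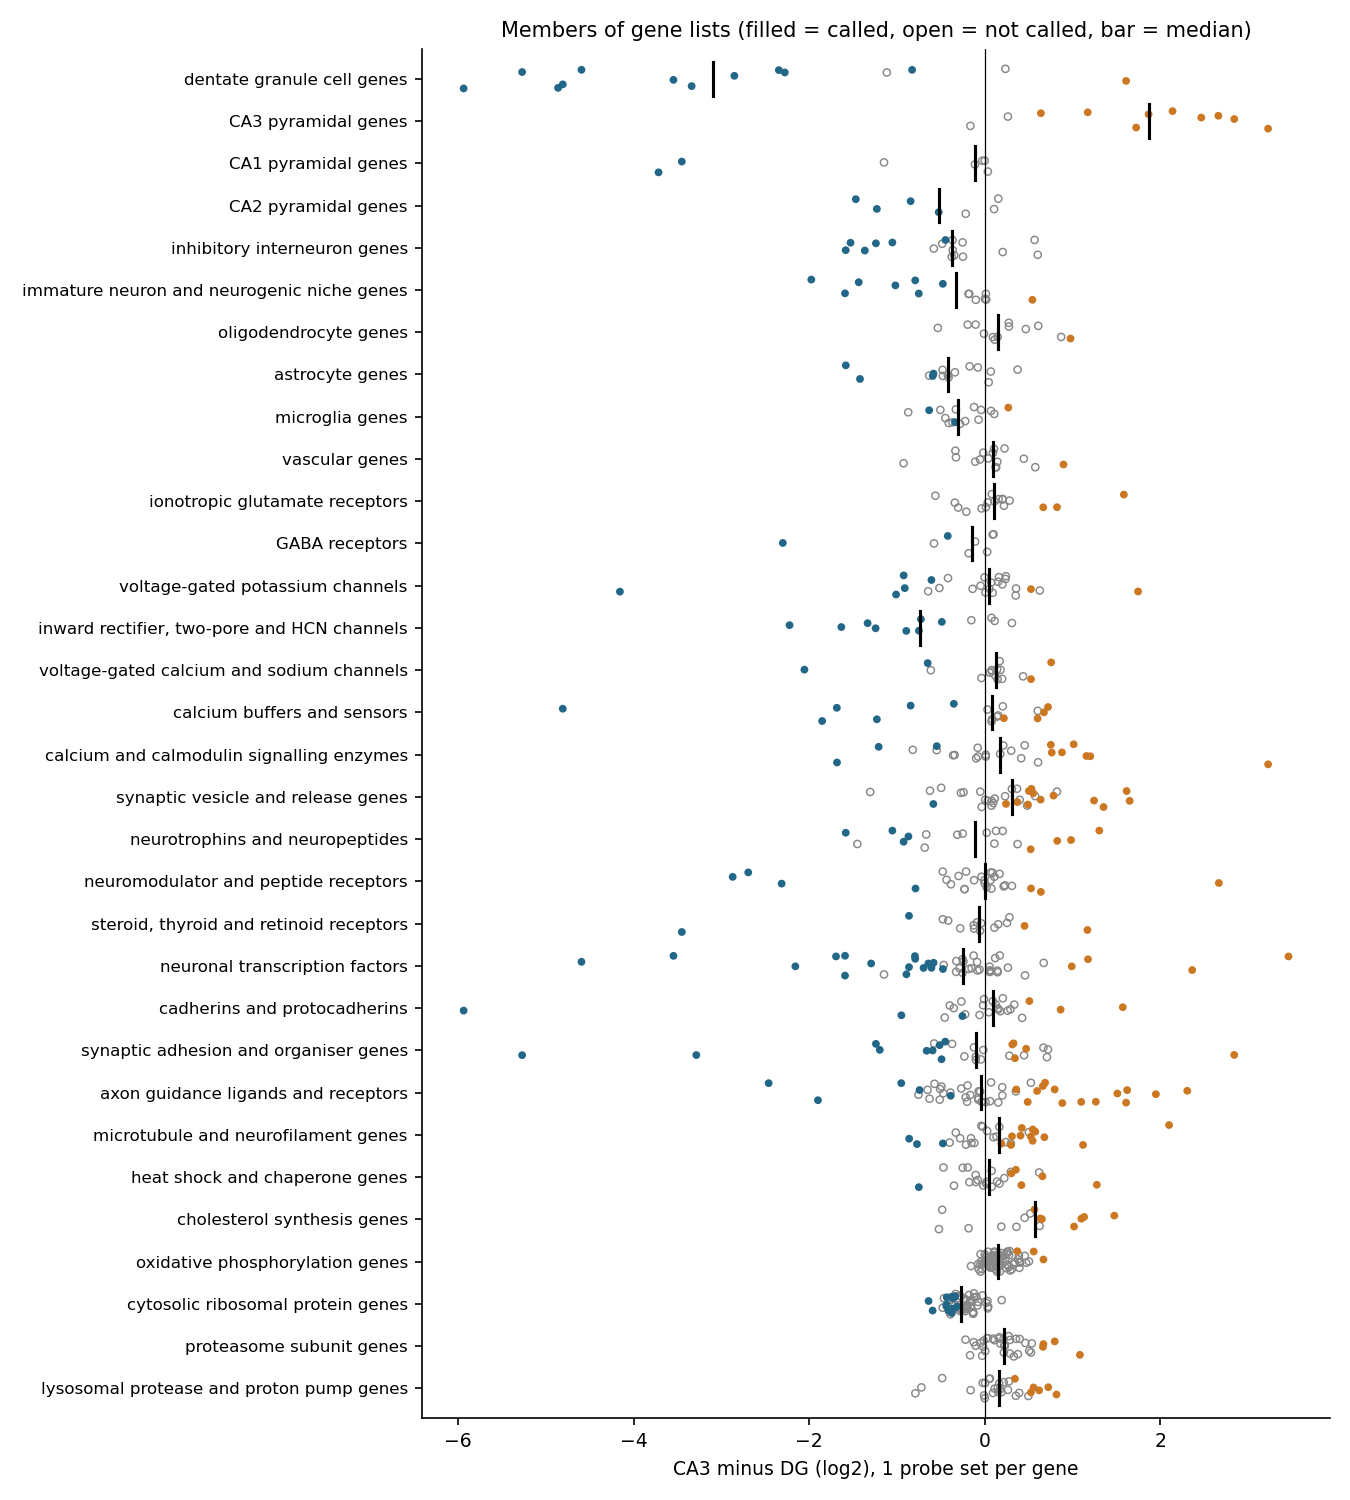
CA3 minus DG difference (log2, horizontal) of the measured members of gene lists, 1 list a row and 1 probe set per gene; filled points were called, orange higher in CA3 and blue higher in DG, open points were not called, and the black bar is the list's median. Granule cell and CA3 genes lie far apart with medians of −3.10 and 1.87, and most other lists are centred near 0 with a few members far out.

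Potassium channels were called mainly toward the DG. Of 12 inward rectifier, two-pore and HCN channel genes, 8 were higher in DG and none in CA3, with a median of −0.74. Kcnk2, the mechanosensitive leak channel TREK, ran from 2.89 to 5.87 (median 4.03) in CA3 and from 5.03 to 7.51 (median 6.30) in DG, and Kcnj3, a subunit of the G protein-gated GIRK channels, from 3.42 to 5.60 (median 4.51) and from 4.52 to 7.03 (median 5.81). Both were higher in DG in 17 of 17 mice, by −2.22 (SE 0.29, limma adjusted p = 2.6e-05) and −1.24 (SE 0.16, limma adjusted p = 2.6e-05). The GIRK subunits Kcnj9 and Kcnj6 (−1.63 and −0.89), the strong inward rectifier Kcnj2 (−1.33) and Kcnj10 (−0.75), which is mainly glial, moved alike. Over all probe sets of these genes, dim ones included, the median was −0.18. Of 25 voltage-gated potassium channel genes, Kcnc4, Kcnh7 (−1.01), Kcna3 (−0.92), Kcnd3 (−0.91) and the channel-interacting protein Kcnip3 (−0.61) were higher in DG, and Kcnq5, a channel of the muscarine-sensitive M current (1.75), and Kcnab2 (0.53) in CA3.

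Of 16 voltage-gated calcium and sodium channel genes, the T-type channel Cacna1h ran from 4.14 to 8.10 (median 6.17) in DG and from 2.63 to 5.79 (median 4.09) in CA3 and was higher in DG in 17 of 17 mice (−2.05, SE 0.26, limma adjusted p = 1.6e-05). The L-type channel Cacna1d was also higher in DG (−0.65), and Scn1a (0.76) and the P/Q-type channel Cacna1a (0.53) were higher in CA3. Calcium binding proteins went both ways, with 4 of 17 higher in CA3 and 6 in DG. Hpcal1, a neuronal calcium sensor, differed by −1.85 (SE 0.19) without overlap, next to Calb1, and Vsnl1, another of that family, by 0.72. Of 25 calcium and calmodulin signalling enzymes, 7 were higher in CA3, among them the kinases Prkcd, Camk1d (1.20), Camk4 (1.16) and Prkcb (1.02), and 3 in DG, among them the release channel Ryr1 (−1.68) and Camk2g (−1.21).

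Most glutamate and GABA receptor genes were not called, but this held for genes at large too. In each of the lists that follow, the share called was above the 13.2% called over all genes. Of 17 ionotropic glutamate receptor genes, the AMPA receptor auxiliary subunits Cacng2 (1.59) and Cacng3 (0.82) and the AMPA subunit Gria3 (0.67) were higher in CA3. Of 4 metabotropic glutamate receptor and Homer genes, Homer3 was higher in CA3 (1.17) and Homer2 in DG (−1.40). Of 8 GABA receptor genes, Gabrd, the extrasynaptic delta subunit known for tonic inhibition of granule cells, ran from 2.30 to 7.72 (median 6.06) in DG and from 2.04 to 5.96 (median 3.25) in CA3. It was higher in DG in 15 of 17 mice (−2.30, SE 0.42, limma adjusted p = 0.00075), and Gabbr1 differed by −0.42.

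Peptide and transmitter receptors held some of the wider gaps. Of 28, 3 were higher in CA3 and 4 in DG. Npy1r, a receptor of neuropeptide Y, ran from 1.52 to 3.29 (median 2.04) in CA3 and from 3.72 to 6.44 (median 4.49) in DG, without overlap (−2.69, SE 0.22, limma adjusted p = 1.1e-07). Its relatives differed in direction: Npy5r was higher in DG (−0.79) and Npy2r in CA3 (0.64). The somatostatin receptor Sstr2 was higher in DG (−2.31, SE 0.27) and the muscarinic receptor Chrm3 in CA3 (2.67, SE 0.32, in 16 of 17 mice). Of 18 neurotrophin and neuropeptide genes, Cck (1.31), Scg5 (0.98), Chgb (0.83) and Cpe (0.52), the last 3 of which serve secretory granules, were higher in CA3, and Npy (−1.58), Tac1 (−1.05), the secretogranin Scg2 (−0.92) and the mossy fibre opioid Pdyn (−0.87) in DG. The 4 DG calls became 1 with the RNA quality covariate.

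Genes of synaptic vesicles and release were called mainly toward CA3. Of 33 measured, 12 were higher in CA3 and 1, Syn3, in DG, with a median of 0.31. Syn3 was not called with the RNA quality covariate or without the 3 mice, when 11 and 10 genes were higher in CA3, and over all probe sets of these genes 21 were higher in CA3 and 2 in DG. Syt4, a synaptotagmin of dense-core vesicles, ran from 6.52 to 7.97 (median 7.61) in CA3 and from 3.62 to 6.84 (median 6.08) in DG, and Syn2, a synapsin that tethers vesicles, from 7.29 to 9.18 (median 8.42) and from 4.42 to 8.24 (median 7.01). CA3 was higher in 17 of 17 mice for both, by 1.62 (SE 0.19, limma adjusted p = 7.4e-06) and 1.35 (SE 0.20, limma adjusted p = 0.00012). The SNARE Stx1a (1.65), the active zone scaffolds Pclo (1.25) and Bsn (0.64) and Syt3 (0.79) were among the others. Of 31 microtubule and neurofilament genes, 12 were higher in CA3, led by the microtubule destabilizer Stmn2 (2.10, SE 0.18, no overlap), the heavy neurofilament Nefh (1.12), the axonal motor Kif5a (0.68) and tau itself, Mapt (0.58), and 3 in DG, Nefm (−0.86), Dclk1 (−0.77) and Stmn1 (−0.48).

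Axon guidance genes were called in both directions, 14 of 46 higher in CA3 and 5 in DG. After Slit2 came the ephrin receptors Epha3 (1.95) and Epha6 (1.51), the semaphorins Sema3e (1.62) and Sema5b (1.61), the Slit receptor Robo1 (1.27) and the netrin receptors Unc5c (1.10) and Dcc (0.89). Sema3e ran from 6.51 to 7.88 (median 7.30) in CA3 and from 3.62 to 6.96 (median 5.75) in DG. On the DG side Efnb3, an ephrin, ran from 4.55 to 6.57 (median 5.53) against 1.66 to 5.33 (median 2.72) in CA3 (−2.46, SE 0.28, limma adjusted p = 4.5e-06), followed by Ntng1 (−1.90), Sema6d (−0.95), Efna5 (−0.74) and Sema7a (−0.39). Without the 3 mice with conflicting labels, 9 guidance genes were higher in CA3 and 4 in DG.

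Of 27 synaptic adhesion and organiser genes, 5 were higher in CA3 and 9 in DG. Gpc4, a heparan sulphate proteoglycan of presynaptic membranes, ran from 8.27 to 9.62 (median 9.05) in DG and from 4.38 to 6.91 (median 5.59) in CA3. The layers stood well apart (−3.29, SE 0.19, limma adjusted p = 8.6e-10). The receptor phosphatase Ptprf (−1.24) and the adhesion molecules Ncam2 (−1.20) and Chl1 (−0.66) were also higher in DG, opposite to Nectin3. With arrays centred on their medians the counts were 8 and 8. Of 25 cadherin and junction genes, Pkp2, which binds desmoplakin in desmosomes, was higher in CA3 (1.57), the reverse of Dsp, with Ctnna2 (0.87) and Cdh11 (0.51), and Pcdh8 (−0.95) and Ctnnb1 (−0.25) were higher in DG.

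Transcription factors leaned to the DG, 16 of 45 against 4 in CA3, with a median of −0.25. Mef2c, an activity-regulated factor that restrains excitatory synapse number, ran from 8.95 to 10.05 (median 9.46) in DG and from 6.20 to 8.44 (median 7.31) in CA3, without overlap (−2.16, SE 0.13, limma adjusted p = 3.3e-09). Nfia was also higher in DG (−1.69), with its relatives Nfib (−0.79) and Nfix (−0.58), as were Bcl11b (−1.59) and Bhlhe40 (−1.29). In CA3 the LIM protein Lmo4 (2.37), Bcl11a (1.18) and Satb1 (0.99) joined Neurod6, so the paralogues Bcl11a and Bcl11b were called in opposite directions. Of 16 steroid, thyroid and retinoid receptor genes, Nr4a3 (1.17) and Thra (0.45) were higher in CA3 and Crym (−3.45) and Nr2f2 (−0.86) in DG.

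Of 24 immediate early activity genes, 3 were higher in CA3 and 2 in DG. Jun ran from 8.11 to 9.41 (median 8.72) in DG and from 4.58 to 7.97 (median 6.17) in CA3, without overlap (−2.29, SE 0.18, limma adjusted p = 6.7e-08), and Btg2 differed by −0.78. Arc, the spine and endosome protein induced by activity, was higher in CA3 in 14 of 17 mice (0.76, SE 0.18, limma adjusted p = 0.00914), with Nr4a3 and Klf10 (0.68). Of 24 heat shock and chaperone genes, 5 were higher in CA3, led by Hspa4l (1.28) and Hsp90aa1 (0.66), and 1, Dnajb5 (−0.75), in DG. Of 16 MHC and interferon genes, H2-D1 was higher in CA3 (0.95) and Ifit2 in DG (−0.40).

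Lists of metabolism and protein turnover had mostly small differences. Of 15 cholesterol synthesis genes, 7 were higher in CA3 and none in DG, with a median of 0.57. Sqle, squalene epoxidase, ran from 5.31 to 6.89 (median 6.16) in CA3 and from 3.22 to 6.37 (median 5.21) in DG and was higher in CA3 in 17 of 17 mice (1.13, SE 0.17, limma adjusted p = 0.00013), beside Msmo1 (1.48), Fdft1 (1.10) and Hsd17b7 (1.02), which act later or earlier in the same pathway. Of 66 ribosomal protein genes, 18 were higher in DG and none in CA3, with a median of −0.27 and Rpl8 (−0.64), Rpl36 (−0.59) and Rpl4 (−0.44) as examples. For oxidative phosphorylation, proteasome, and lysosomal protease and proton pump genes, 3 of 79, 4 of 36 and 6 of 29 were higher in CA3 and none in DG, at medians of 0.15, 0.22 and 0.17. The first 2 shares, 3.8% and 11.1%, stand against 6.74% higher in CA3 and 13.2% called in either direction over all genes. The wider differences were those of Psmd13 (1.09) and the proton pump subunits Atp6v1h (0.82) and Atp6v0e2 (0.73).

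RNA quality also differed between the layers. The log2 signal of the 3′ minus the 5′ Gapdh control probe sets, which grows as the 5′ end of transcripts is lost, ran from 2.13 to 3.17 (median 2.40) in CA3 and from 2.24 to 3.63 (median 2.67) in DG. It was higher in DG in 12 of 17 mice, by 0.30 on average, with p = 0.0161 in an exact two-sided test that turned the signs of the 17 mice. With this measure as a covariate, 883 of the 1429 calls in CA3 and 938 of the 1376 in DG were made again. Ribosomal protein genes higher in DG then numbered 33, cholesterol genes higher in CA3 numbered 4, and the median of the oxidative phosphorylation genes was −0.01, while centring of the arrays gave 10 ribosomal calls in DG and 9, 8 and 13 calls in CA3 for oxidative phosphorylation, proteasome and lysosomal genes. The median of the cholesterol genes moved little, 0.62 with the covariate and 0.64 with centring. Why the counts varied with the setting was not tested.

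Separate fits within the labelled genotypes showed whether the layers differed alike in each group. The DN and rTg4510 groups include the 3 mice with conflicting labels, which were left out of these fits only 1 at a time. Whether these groups hold separate animals throughout was not tested. In the 6 DN, 5 tTA and 6 rTg4510 mice, 639 (2.82%), 199 (0.88%) and 386 (1.71%) probe sets were called. Of the 639 called in DN mice, 95.8% had the same sign in tTA mice and 96.9% in rTg4510 mice. Of those called in tTA mice 98.0% had that sign in DN and 97.5% in rTg4510 mice, and of those called in rTg4510 mice 97.7% in DN and 96.9% in tTA mice, against 61.1% to 66.0% over all probe sets. Called in each of the 3 genotypes, with 1 sign, were 74 probe sets (0.327%) of 55 genes, 19 higher in CA3 and 55 higher in DG. That count rests on the small tTA group: it was 54 to 79 with a DN mouse left out, 40 to 62 with an rTg4510 mouse left out and 1 to 31 with a tTA mouse left out. Of the 30 genes with the largest differences, Dsp was −5.24 in tTA mice with a limma adjusted p of 0.0522 within that genotype, and 12 others missed the threshold in tTA or rTg4510 mice. Over single mice the median of the 15 CA3 genes ran from 1.63 in rTg4510 mouse 1 to 3.38 in tTA mouse 2, and that of the 15 DG genes from −4.91 in DN mouse 5 to −2.64 in rTg4510 mouse 4.

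**Figure D4:**
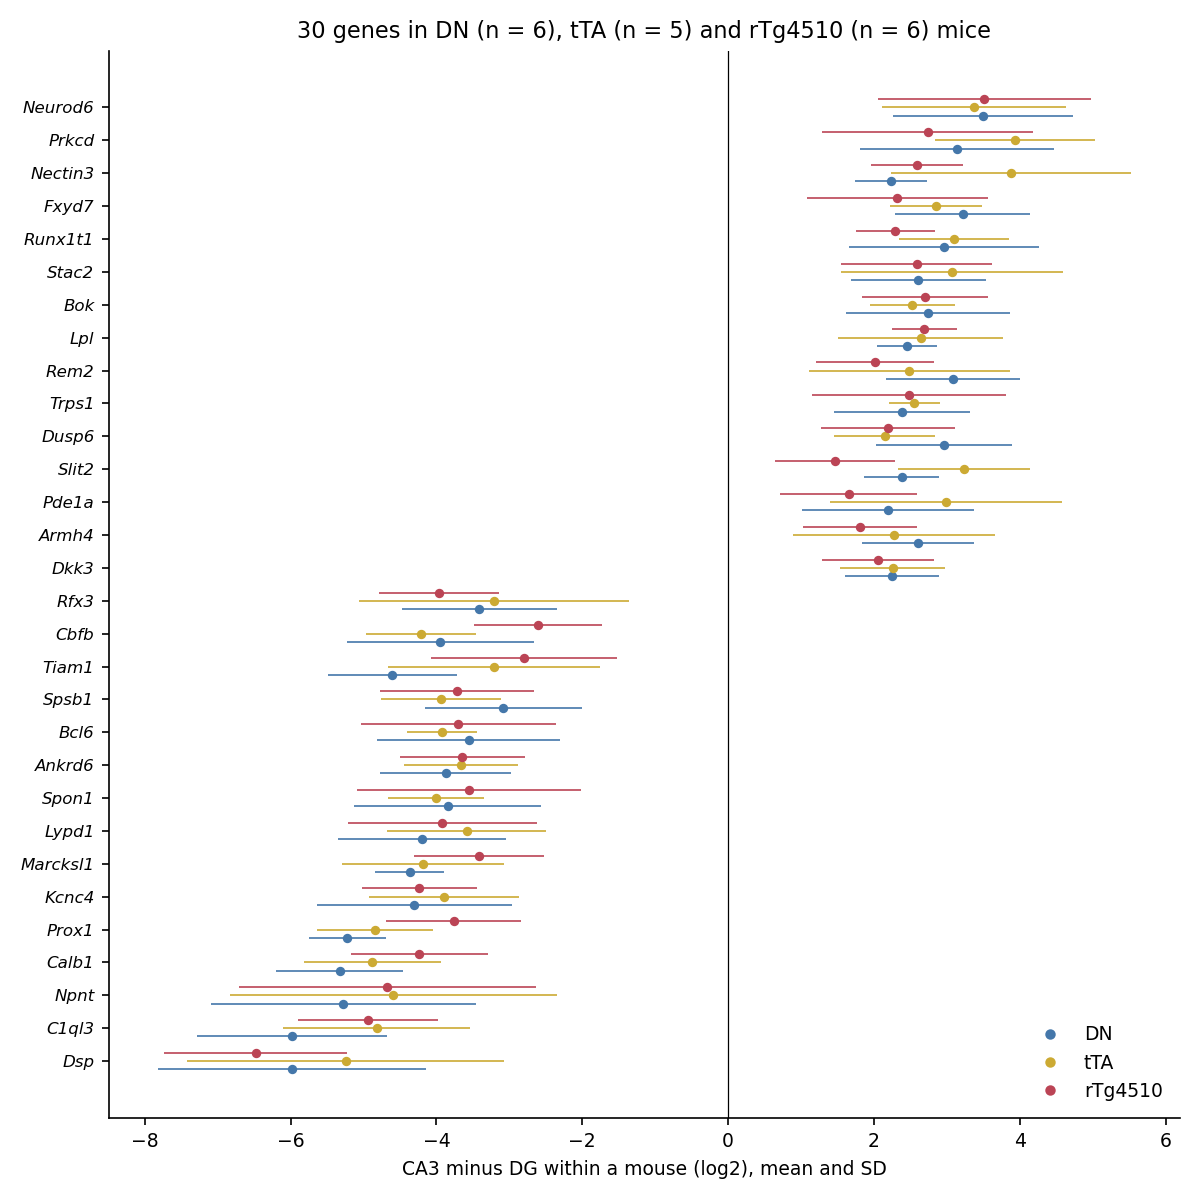
Mean CA3 minus DG difference within a mouse (log2, horizontal) of the 30 genes with the largest differences, by genotype, with bars for the SD over 6 DN, 5 tTA and 6 rTg4510 mice. All genotype means of a gene lie on the same side of 0, and the bars of the genotypes overlap for nearly every gene.

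The difference between the layers was then compared among genotypes. Under the labels, the moderated F test of limma called 0 of 22626 probe sets (0.0%), with 1218 (5.38%) at an unadjusted p under 0.05 and a lowest adjusted p of 0.888. Nor was any probe set called for rTg4510 against tTA (1453 at an unadjusted p under 0.05) or for tTA against DN mice (1150). The smallest p values belonged to Nfkbie, an inhibitor of NF-κB, whose differences were 2.11, 0.45 and 0.32 in DN, tTA and rTg4510 mice, to Krt77, a keratin (−2.40, −0.22 and −0.39), to Emc4, of the membrane protein insertion complex of the endoplasmic reticulum (0.34, 1.14 and 0.25), to the kinase Mapk7 and to a probe set without a symbol. Prox1 differed by −5.22, −4.84 and −3.76 (limma adjusted p of the F test = 0.899). List medians lay close together for granule genes (−3.19, −3.32 and −3.16 in DN, tTA and rTg4510 mice) and CA3 genes (2.19, 1.79 and 1.90). For ribosomal protein genes they were −0.40, −0.38 and −0.02 and for oxidative phosphorylation genes 0.03, 0.06 and 0.32, and the difference between genotypes was not tested for lists.

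Without DN mice 4 and 5 and rTg4510 mouse 3, 5 probe sets (0.0221%) were called by that F test. They belonged to 4 genes, which are named here after their values were seen: Doc2b, a calcium sensor of vesicle release, Cxcl12, the chemokine that guides granule cell precursors, Ntng1, the axonal adhesion protein netrin-G, and Nfkbie. Doc2b in DG ran from 5.02 to 6.51 (median 5.87) in the 4 remaining DN mice, from 1.61 to 2.01 (median 1.69) in tTA mice and from 1.38 to 2.23 (median 1.56) in the remaining rTg4510 mice. The DN mice stood well above both other genotypes, and the CA3 minus DG differences were −4.05, −0.16 and −0.07 (limma adjusted p = 2.7e-05). Cxcl12 (not its brightest probe set) in DG ran from 6.50 to 6.75 in DN, from 2.13 to 2.93 in tTA and from 1.72 to 3.496 in rTg4510 mice, with differences of −4.72, −0.33 and −0.28 (limma adjusted p = 2.7e-05). Ntng1 in DG ran from 5.27 to 6.03, from 2.66 to 4.30 and from 2.46 to 4.74, with differences of −3.97, −1.33 and −0.64 (limma adjusted p = 0.019). The brightest probe set of Cxcl12 was not called. By the probe sets given here, the DN mice stood above both other genotypes without overlap for all 3 genes.

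Nfkbie differed in the other layer. In CA3 it ran from 3.64 to 4.58 (median 4.06) in DN, from 1.89 to 2.43 (median 2.14) in tTA and from 1.503 to 2.88 (median 2.20) in rTg4510 mice, and the CA3 minus DG differences were 2.15, 0.45 and 0.21 (limma adjusted p = 0.019). In the 3 mice left out, Nfkbie in CA3 was 2.62 and 4.87 in DN mice 4 and 5 and 2.74 in rTg4510 mouse 3. The last value lay within the range of the other rTg4510 mice. Doc2b in DG of these mice, in that order, was 1.74, 2.29 and 5.77. Cxcl12 in DG was 3.89, 1.72 and 7.24 and Ntng1 was 3.49, 4.45 and 5.27. The DG arrays whose Prnp went against their label lay outside the range of the other mice of that label for Doc2b, Cxcl12 and Ntng1. These 3 genes were called only with those mice left out, so their values are no separate check of the labels. Leaving out a single mouse in place of 3 gave at most 1 call, Nfkbie without DN mouse 4 (limma adjusted p = 0.0495), so the 5 calls rest on leaving out mice after their arrays had been seen to conflict with the labels.

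**Figure D5:**
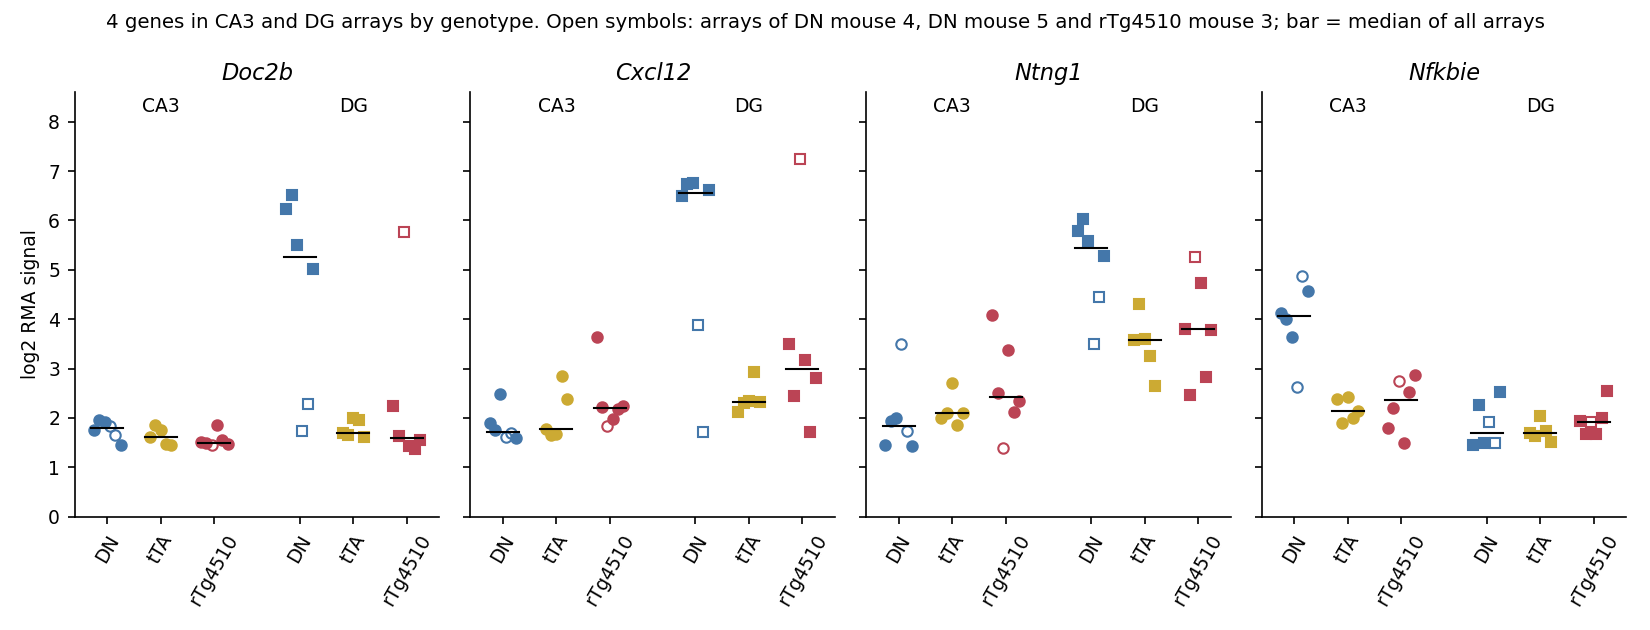
Log2 RMA signals of Doc2b, Cxcl12, Ntng1 and Nfkbie in CA3 and DG arrays by genotype; filled symbols are arrays of 14 mice, open symbols those of DN mice 4 and 5 and rTg4510 mouse 3, and bars are medians of all arrays of a group. Among filled symbols DN mice stand above tTA and rTg4510 mice in DG for Doc2b, Cxcl12 and Ntng1 and in CA3 for Nfkbie. Cxcl12 is shown by a probe set that is not its brightest, and the brightest was not called.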

How the data were processed

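RNA of CA3 and DG layers, captured by laser from frozen sections, was amplified (Ovation Pico WTA), labelled with biotin (Encore) and hybridized to HT-MG-430A arrays, 1 array per mouse and layer. The authors deposited log2 RMA signals, which are background-corrected, normalized between arrays and summarized to 1 value a probe set. The scale is log2, although the methods speak of anti-log values. The version of RMA and the arrays normalized together are not given in the sources used here.

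From these, 22626 of 22716 probe sets were tested, all but 90 controls, with no minimum signal. The platform table gave 1 symbol to 18003 probe sets, several to 287 and none to 4336, and Prnp was named through the supplementary tables of the study. The comparison of layers used lmFit and eBayes of limma 3.58.1 (R 4.3.3), the mouse as a block, p-values adjusted by Benjamini-Hochberg across every probe set tested, and a threshold of 0.05. The same fit was made within each genotype, and genotypes were compared by a moderated F test on the 17 CA3 minus DG differences. The pairing comes from the mouse number in the titles. Once layer means were removed, CA3 and DG arrays of a mouse correlated at a mean r of 0.0429 across probe sets and arrays of different mice at −0.00217, and 3 of 17 pairs exceeded 0.1. No array was a copy of another (highest correlation 0.977). Precision is set by the 17 mice, and p-values measure the spread between them.

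Genes named are the 6 markers, the 15 largest differences on either side among genes called with 1 direction in 17 of 17 mice, up to 6 members called per list, the defining members of cell types and the 5 smallest p values of the F test; other names were chosen after their values were seen. The members and lists were chosen with earlier results of these data known, so the lists carry no test of their own. A signal near the array median may be background. Promoter sequences came from RefSeq (GRCm38.p6), where 22 of the 30 named genes had an entry. Each fit was first tried on simulated data. Arrays labelled CA1 were not used in a comparison, and other tissues and ages were not analysed here.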

Additional observations from a re-analysis of the deposited data

How the results depend on the processing

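With all 51 arrays, an intensity trend, array weights, unmoderated tests, the methods' LSD test, a filter on the dimmest 40% of probe sets and quantile normalization, 2661 to 3167 probe sets were called, against 2805, and 2224 on linear signals. Without the replicate block, that is without pairing by mouse, 2819 were called, 1496 higher in CA3, 1323 higher in DG and 861 with a size of 1 or more. Of the 2805 calls with the block, 2508 (89.4%) were also made without it. With the Gapdh covariate the calls were 2315, 1163, 1152 and 889, and without the 3 mice with conflicting labels 2272, 1154, 1118 and 889. Leaving out each mouse in turn gave 2486 to 2763 calls, 1248 to 1402 in CA3, 1238 to 1361 in DG and 845 to 902 of size 1 or more. Centring of the arrays gave 2450 calls in CA3. The use of 1 probe set per gene, which tests fewer probe sets, gave 1583, 813, 770 and 487. Fits within a genotype hold fewer mice and gave 639, 283, 356 and 530 in DN, 199, 68, 131 and 198 in tTA and 386, 182, 204 and 333 in rTg4510 mice. These fell to 204 to 614 with a DN mouse left out, 1 to 66 with a tTA mouse left out and 111 to 214 with an rTg4510 mouse left out. Without the block 906 were called within DN mice. Within tTA mice 310 were called with a trend and 396 without the block, and within rTg4510 mice 627 without the block. The genotype F test called 0 to 1 with a mouse left out and 5 without the 3 mice. Of 990 values of the 30 genes under 33 settings, 976 kept their direction and their side of the threshold, 14 kept their direction but missed it, all within tTA or rTg4510 mice, and 0 turned. Settings that use the Gapdh covariate or leave out the 3 mice for list counts, and the alternatives within genotypes, calls in all 3 genotypes included, were chosen after seeing the data. The size rule was not run on linear signals. Genes whose signal in both layers is near the array median are limited by background, and a difference against such a level understates the fold.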
